A study of Arabidopsis thaliana with 6 samples.

Results

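Pectate lyases and pectin methylesterases are secreted enzymes that act on homogalacturonan, the main pectin of the plant cell wall. The genes described here are 10 listed pectate lyase genes and 29 listed pectin methylesterase genes of Arabidopsis thaliana, and a member was measured where the platform annotation gave it a probe set that names its locus and no other gene. That held for 31 of the 39 listed genes, all 10 pectate lyases and 21 pectin methylesterases, out of 13286 loci with such a probe set. The other 8 listed genes were not analysed here.

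Homogalacturonan is laid down in the wall with many of its galacturonic acid residues methylated. Pectin methylesterases remove the methyl groups in the wall. The freed acid groups can bind calcium and form stiff gels, or leave the chain open to pectate lyases and polygalacturonases, which cut it. Proteins of the pectin methylesterase inhibitor family can block the esterases, and pectin fragments released by cutting are sensed by plant cells as a damage signal.

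Whole plants of the accession Col-0 (stock N1093) at developmental stage 1.04 were exposed for 6 h to ozone at 500 ppb, which gives rise to reactive oxygen species inside leaves, or for 6 h to air scrubbed with charcoal and purafill as the control. Each group had 3 replicates, each on its own Affymetrix ATH1 array. All plants carried the same genotype and grew on 0.8% agar at 20 °C with 16 h of light, and RNA was taken directly after fumigation. Whether replicates stem from separate cultures is not stated in the labels. The p-values therefore rest on a spread between arrays that may be technical.

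Values are MAS5 signals, a summary of the probes for a gene on a linear scale without unit, and a level is not comparable between probe sets. Median signals of the arrays were 41.7 to 49.45. Of the 13648 probe sets bright enough to test, 28% passed a limma adjusted p of 0.05 for ozone against control. Principal component 1, with 69.7% of the variance, parted the groups, and ozone replicate 3 lay nearest to the controls on it (-32.9, against -57.8 and -59.3 for ozone replicates 1 and 2, and 44.6 to 54.2 for the controls). Principal component 2, with 21.45%, held both replicate 1 arrays on its positive side and the other 4 arrays on its negative side. Among markers of organs and cell types, the root hair expansin EXPA7 fell (log2 fold change -0.94, limma adjusted p = 0.0101). The other 4 tested markers did not pass: the root genes EXPA18 (-0.57) and PYK10 (-0.33), the guard cell gene FMA (-0.34) and RCA of leaf photosynthesis (-0.39). The ozone means of EXPA7 (24.0) and EXPA18 (26.6) were below 31.2, the signal under which a probe set was not tested. Both were thus tested because of their control arrays. The summed signal of the 3 root genes was 1857 to 2478 on ozone arrays and 2235 to 3440 on control arrays. Nearly all of this sum was PYK10, with 1806 to 2420 with ozone and 2154 to 3350 in control. RCA had 1603 to 2069 with ozone and 2076 to 3173 in control. Their part in the results below was not tested, and fewer cells of a type and less RNA per cell cannot be told apart in whole plants. None of the listed markers of pollen, seed coat and xylem was assigned a probe set of its own by the annotation.

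Transcripts of most of the 10 listed pectate lyases were lower after ozone. The list was chosen with earlier results of these data known. Its counts beside the shares of the whole array are therefore descriptive and no test of the gene family. All 10 genes were tested, 8 fell with an adjusted p under 0.05, 0 rose, and all 8 had a fall of at least 2-fold. The number with such a fall was 5 without ozone replicate 2, and 7 and 3 with 16 and 64 added to every signal. For 2 of the 8, AT1G67750 and AT3G27400, the ozone mean was below 31.2, the signal under which a probe set was not tested, so they were tested because of their control arrays and the size of their fall is uncertain. Across the array, 14.9% of the tested probe sets were called lower and 5.69% were called lower by at least 2-fold. As a median, the log2 change was -1.33 for the pectate lyases and -0.15 for all tested probe sets. For the same 8 genes every ozone array lay below every control array, which was so for 27.5% of tested probe sets.

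**Figure D1:**
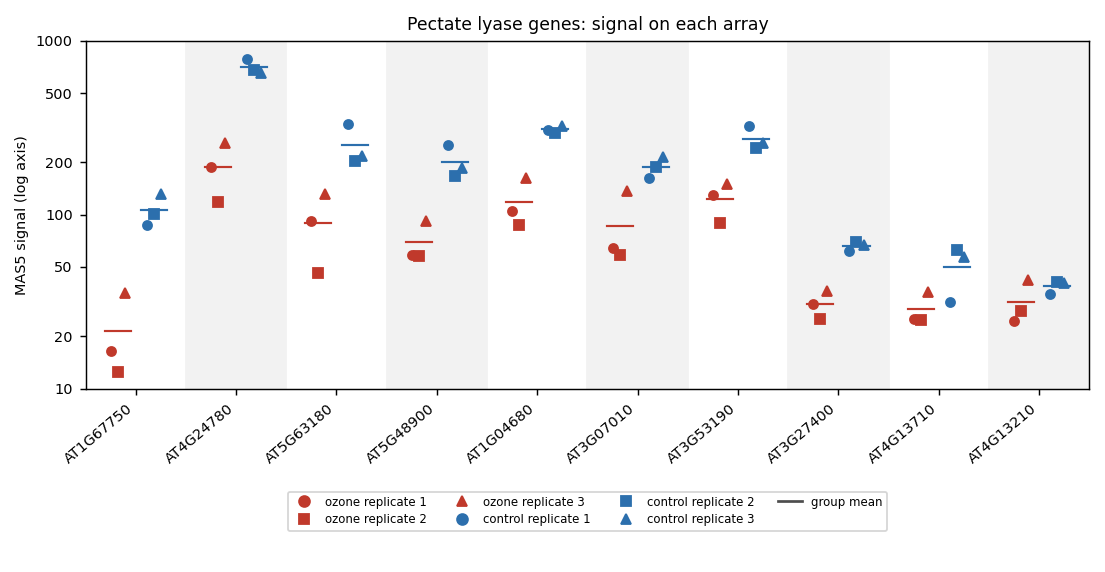
MAS5 signal (log axis) of the 10 pectate lyase genes on each ozone array (red, left) and each control array (blue, right), with symbols for replicates and a line at each group mean. The groups are apart for 8 genes and overlap for AT4G13710 and AT4G13210, and ozone replicate 3 (red triangle) is the highest ozone array for all 10.

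AT1G67750 had the most negative log2 fold change of the 10 listed pectate lyases on the signals as deposited. Its signal was 16.4, 12.4 and 35.5 on ozone arrays 1, 2 and 3, against 87.0, 100.9 and 131 on control arrays 1, 2 and 3. This is a log2 fold change of -2.44, with an SE of 0.382 and a limma adjusted p of 0.00321. It was -1.74 with 16 and -0.997 with 64 added to every signal, where AT4G24780 had larger falls (-1.88 and -1.65), so its size and rank depend on how low signals are treated. Its call held in all 15 alternative settings that tested it.

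AT4G24780 had a far lower signal on each ozone array than on any control array. It read 187, 118 and 259 with ozone, against 783, 683 and 649 in control. The log2 fold change was -1.98 (SE 0.275, adjusted p = 0.00193), a 3.94-fold fall with both groups well above the dim range. This gene and AT1G67750 were the pectate lyases with the smallest adjusted p.

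AT5G63180, AT5G48900 and AT1G04680 fell by 2.69-fold to 2.98-fold. AT5G63180 read 91.4, 46.1 and 132 with ozone, against 334, 204 and 217 in control (adjusted p = 0.0181). AT5G48900 read 58.9, 58.0 and 91.5 with ozone, against 251, 167 and 185 in control (adjusted p = 0.00328). For both, control replicate 1 was the highest of all arrays. AT1G04680 read 106, 87.7 and 163 with ozone, against 307, 296 and 323 in control (adjusted p = 0.00375), and its controls differed little among themselves (309 ± 13.6, SD, n = 3).

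AT3G07010, AT3G53190 and AT3G27400 had smaller falls, of 2.34-fold and 2.26-fold for AT3G07010 and AT3G53190. AT3G07010 read 64.4, 58.3 and 136 with ozone, against 163, 187 and 215 in control (log2 fold change -1.23, SE 0.319, adjusted p = 0.0243). The gap between its ozone replicate 3 and its lowest control was narrow, and the call was lost without ozone replicate 1, ozone replicate 2, control replicate 2 or control replicate 3 (adjusted p up to 0.0896). AT3G53190 read 130, 89.2 and 150.0 with ozone, against 322, 242 and 257 in control (adjusted p = 0.00741). AT3G27400 was dimmer, with 30.7, 25.0 and 36.2 under ozone, against 62.1, 69.5 and 67.2 in control (adjusted p = 0.00551). Its ozone mean was 30.6, and its log2 fold change of -1.13 was -0.46 with 64 added to every signal.

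The 2 remaining pectate lyases did not pass. AT4G13710 read 25.0, 24.7 and 35.8 with ozone, against 31.4, 62.3 and 57.2 in control. Its control replicate 1 lay among the ozone arrays, and the log2 fold change was -0.78 (95% interval -1.49 to -0.074, adjusted p = 0.0932). With the replicate number as a block in the fit it passed (adjusted p = 0.0224), as it did without control replicate 1 and without both replicate 1 arrays. Its ozone mean of 28.5 was below 31.2, so it too was tested because of its control arrays. AT4G13210 read 24.6, 28 and 41.9 with ozone, against 35.1, 41.2 and 40.7 in control. Its ozone mean of 31.5 was barely above 31.2, and its signals on ozone replicates 1 and 2 were below that bound. Its ozone replicate 3 was the highest of all its arrays, and its log2 fold change was -0.34 (95% interval -0.91 to 0.22, adjusted p = 0.331), so a fall of up to 0.91 on the log2 scale lies within its interval.

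The ozone arrays did not show the change to the same extent. Ozone replicate 3 was the highest ozone array for 10 of 10 pectate lyases and ozone replicate 2 the lowest for 9 of 10. Among all probe sets called lower, ozone replicate 3 was the highest of its group for 63.6% and ozone replicate 2 the lowest for 60.3%. Over all tested probe sets these shares were 40.6% and 34.2%. The median signal of the whole array was 41.7, 44.7 and 49.4 for ozone replicates 1, 2 and 3. The part of this brightness in the order of the arrays was not tested. The median difference of the pectate lyases from their control mean was -1.48, -1.73 and -0.88 on the log2 scale for ozone replicates 1, 2 and 3. Over all probe sets called lower these medians were -0.92, -1.05 and -0.72. Without ozone replicate 3 the median log2 fold change of the 10 pectate lyases was -1.65 and 8 fell. Without ozone replicate 2 it was -1.08 and 7 fell. Of all 13648 tested probe sets, 1933 were called lower without ozone replicate 3 and 991 without ozone replicate 2. Without both replicate 1 arrays, a setting chosen after seeing the data, 9 fell, beside 2742 of all 13648 tested probe sets.

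**Figure D2:**
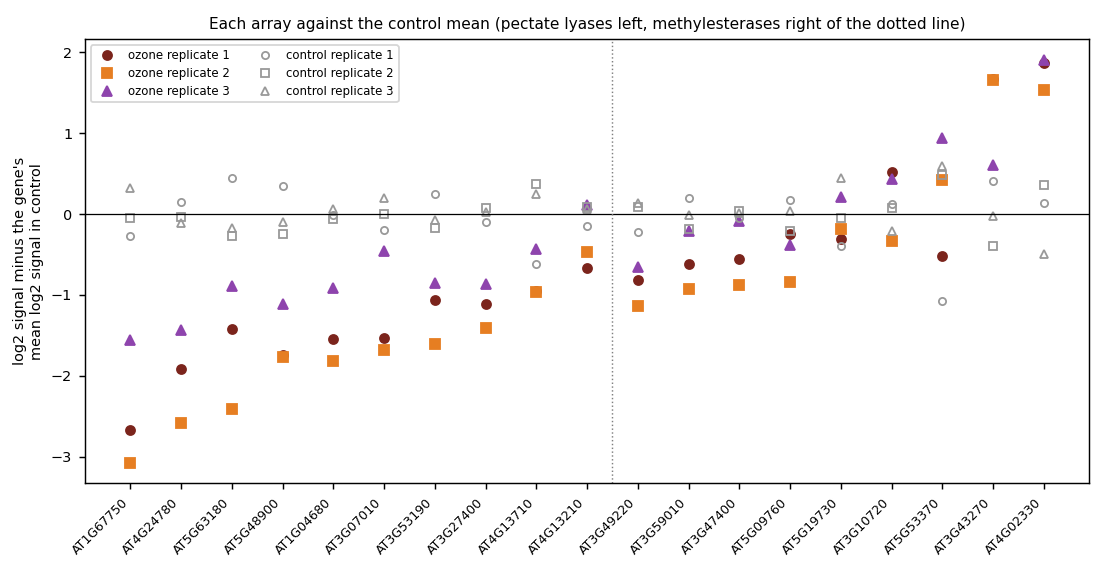
Log2 signal of each array minus the gene's mean log2 signal in control, for the 10 pectate lyases (left of the dotted line) and the 9 tested pectin methylesterases (right), with filled symbols for ozone arrays and open grey ones for control arrays. Ozone replicate 2 (orange squares) is lowest of the ozone arrays for 9 of the 10 pectate lyases, and all ozone arrays of AT4G02330 and AT3G43270 lie above zero.

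Among the tested pectin methylesterases, calls were few and went both ways. Of the 21 measured genes 9 were bright enough to be tested, and of these 2 rose, 1 fell and 6 did not pass. Across the array 13% of tested probe sets were called higher and 14.9% lower. With 9 genes, counts of 2 and 1 do not set the esterases apart from these shares. In 2 of the 9 every ozone array was above every control array and in 4 below, beside 18.2% and 27.5% of all tested probe sets. For the 9 tested genes the median difference, ozone minus control, was -0.094 on the log2 scale, or 0.0041 with quantile normalization, so its sign depended on the scaling. With the replicate block 2 rose and 3 fell, beside 19.1% of probe sets called higher and 30% called lower in that fit.

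AT4G02330, also named PME41 and ATPMEPCRB, rose 3.41-fold. Its signal was 154, 122 and 159 with ozone, against 46.2, 54.3 and 29.9 in control. The groups lay far apart (145 ± 20.0 with ozone, 43.5 ± 12.4 in control, SD, n = 3 each), and the log2 fold change was 1.77 with an SE of 0.252 (limma adjusted p = 0.00215). The call held in all 16 alternative settings, where the log2 fold change was 0.96 to 1.95. PME41 is known for a role in the response of leaves to chilling, downstream of brassinosteroids. Its direct neighbour in the genome, AT4G02320, also a pectin methylesterase gene, read 1.2 to 2.7 with ozone and 3.1 to 3.3 in control. AT4G02300, separated from AT4G02320 by 1 gene, read 3.4 to 11.3 with ozone and 5.7 to 11 in control. Both neighbours were too dim to be tested.

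AT3G43270 rose 2.48-fold. It read 150, 148 and 71.8 with ozone, against 62.8, 36.0 and 46.4 in control. The log2 fold change was 1.31 (SE 0.335, adjusted p = 0.0230). Ozone replicate 3 lay much closer to the controls than the other two ozone arrays did. The call was lost without ozone replicate 1, ozone replicate 2, control replicate 2 or control replicate 3, with adjusted p up to 0.0923.

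AT3G49220 was the pectin methylesterase that fell. Its signal was 118, 94.7 and 132 with ozone, against 179, 221 and 228 in control. Every ozone array was below every control array, and the log2 fold change was -0.87 (SE 0.186, adjusted p = 0.0112, and 0.0532 without control replicate 3). The fall was 1.83-fold, smaller than those of the 8 pectate lyases on the signals as deposited, though the difference between the genes was not tested.

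**Figure D3:**
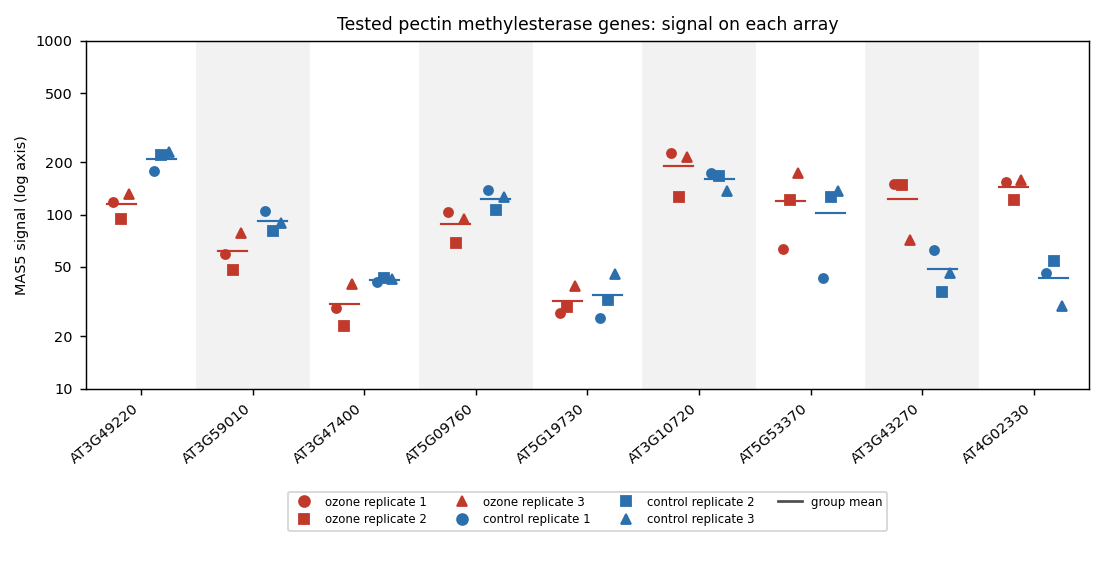
MAS5 signal (log axis) of the 9 tested pectin methylesterase genes on each ozone array (red, left) and each control array (blue, right), with symbols for replicates and a line at each group mean. AT4G02330 and AT3G43270 are higher on all ozone arrays, and AT3G49220, AT3G59010, AT3G47400 and AT5G09760 are lower on all of them, of which AT3G49220 passed the test.

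In 3 further genes all ozone arrays lay below all control arrays without passing. PME35, listed under the symbol PME61 (AT3G59010), is known for demethylating pectin in stem fibres, where it supports mechanical strength. It read 59.4, 47.8 and 78.3 with ozone, against 104, 80.1 and 89.8 in control (log2 fold change -0.58, adjusted p = 0.0885, but 0.0183 with the replicate block and 0.0392 without ozone replicate 3). AT5G09760 read 103, 68.8 and 94.6 with ozone, against 139, 106 and 126 in control (log2 fold change -0.49, adjusted p = 0.117, and 0.0152 with the replicate block). AT3G47400 read 28.9, 23.0 and 39.8 with ozone, against 41.0, 43.4 and 42.6 in control (log2 fold change -0.51, adjusted p = 0.149). Its ozone mean of 30.6 was below 31.2. In these 3 genes ozone replicate 2 was the lowest array.

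The groups overlapped for the other 3 tested esterases. AT3G10720 had a log2 fold change of 0.21 (95% interval -0.36 to 0.78) and AT5G19730 one of -0.094 (95% interval -0.72 to 0.53). PMEPCRF (AT5G53370) read 63.8, 122 and 175 with ozone, against 43.4, 127 and 137 in control. Replicate 1 was the lowest in both groups, and with a log2 fold change of 0.28 the 95% interval ran from -0.89 to 1.45. That interval is the widest of the 9, and both no change and a 2-fold rise lie within it.

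The remaining 12 measured pectin methylesterases had a mean log2 signal under the bound for testing, and their highest signal on any array was 55.5. Both group means were below 31.2 for 9 of them, 0 had an ozone mean above it, and 3 had a control mean above it. Among those 3, AT5G04960 read 10.7, 6.5 and 21.4 with ozone, against 50.6, 50.7 and 55.5 in control. The log2 fold change was -2.19, with an adjusted p of 0.0136 in the fit without the filter on dim probe sets. AT1G02810 read 14.3, 12.6 and 22.9 with ozone, against 51.2, 29.1 and 30.5 in control (-1.15, adjusted p = 0.0669 in that fit). AT5G64640 read 21.1, 26.3 and 23.7 with ozone, against 35.2, 47.4 and 30.1 in control (-0.64, adjusted p = 0.146). For these genes the ozone arrays lay in the dim range, where signals hold much noise. AT5G04970, the direct neighbour of AT5G04960, had at most 3.4 on any array. Of the 12 genes, 9 had log2 fold changes below 1 in size, between -0.66 for AT4G02320 and 0.44 for AT5G51490. In 4 of the 12 every ozone array was below every control array, and in 0 above, beside 13.1% and 7.08% of the 9098 untested probe sets.

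Other genes that make, change or cut pectin were read from 8 lists with 113 loci, of which 61 could be assigned a probe set and 33 were tested. Of the 33, 1 rose, 11 fell and 21 did not pass, with a median log2 fold change of -0.46, beside 13% of all tested probe sets called higher and 14.9% called lower. With the replicate block 2 rose and 17 fell, beside 19.1% and 30%. In the fit without the filter on dim probe sets, 1 of 61 rose and 13 fell. Of all 22746 probe sets in that fit, 1897 were called higher and 1829 lower. The lists cover unequal parts of their pathways. The annotation assigned a probe set to 0 of 5 genes that supply UDP-galacturonate and to 2 of 22 that build or methylate galacturonan. It holds no entry for 8794 of the 22810 probe sets, so a gene left out here may still have a probe set on the array.

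Polygalacturonases cut demethylated pectin by hydrolysis. Of 31 with a probe set, 21 were too dim to be tested. Of the 10 tested, 6 fell, 0 rose and 4 did not pass, with a median log2 fold change of -1.06. Of all tested probe sets, 14.9% were called lower. Among the dim genes, AT1G80170 (-2.53, adjusted p = 0.0153) and AT3G15720 (-2.06, adjusted p = 0.00742) passed in the fit without the filter. Their signals were at most 34.7 on any array. AT4G23820 read 127, 83.8 and 259 with ozone, against 322, 517 and 498 in control (log2 fold change -1.64, adjusted p = 0.0181). AT1G60590 read 19.7, 23.0 and 40.1 with ozone, against 108, 90.3 and 108 in control (-1.96, adjusted p = 0.00224). Its ozone mean of 27.6 was below the filter signal, and adding 64 to every signal brought the log2 fold change to -0.87. In both genes ozone replicate 3 was again the highest of the ozone arrays. AT1G10640 (log2 fold change -1.61), AT3G06770 (-1.50), AT3G62110 (-1.14) and AT3G16850 (-0.99) were the other 4. The 4 that did not pass were AT1G19170, AT3G57790, AT3G61490 and AT4G33440, with log2 fold changes of -0.23 to 0.065. AT4G23820 lost its call when ozone replicate 2, or either of control replicates 2 and 3, was left out (adjusted p up to 0.0634).

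**Figure D4:**
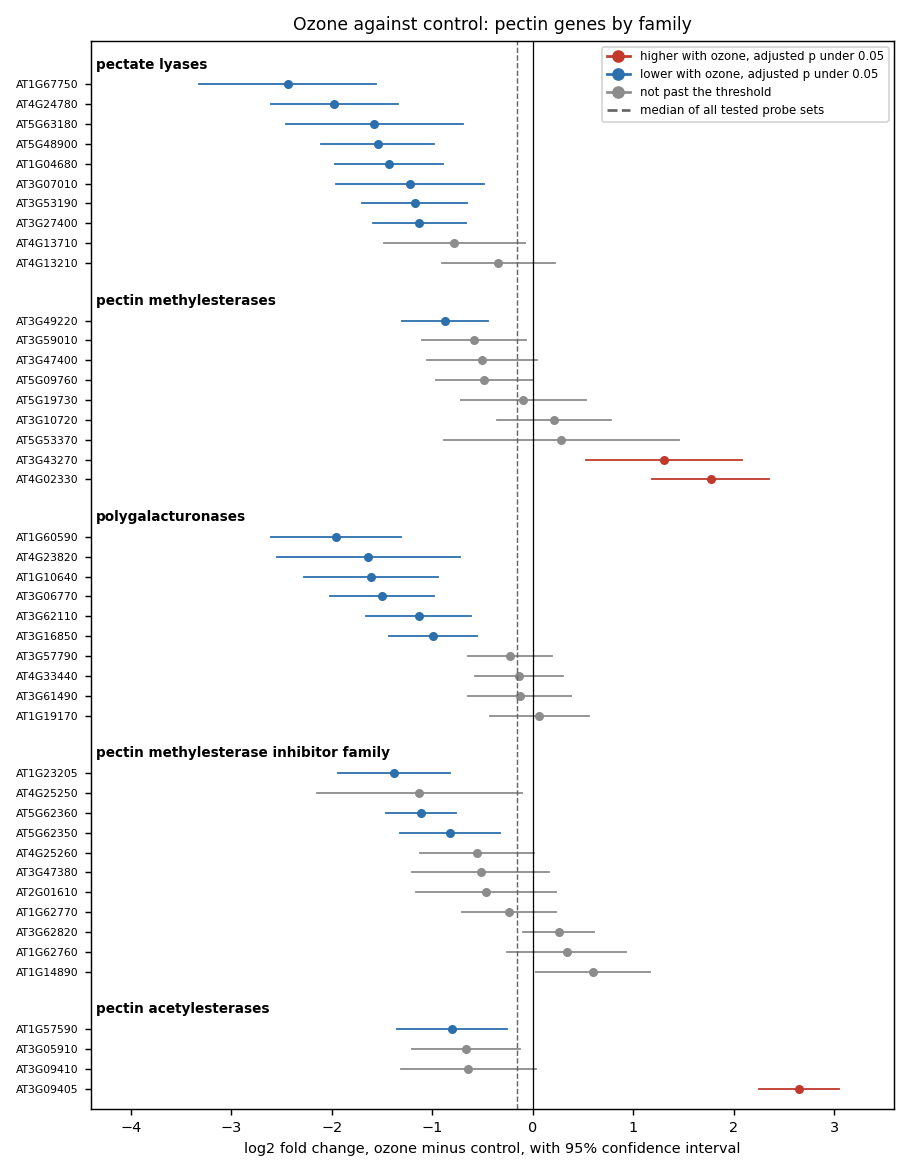
Log2 fold change (ozone minus control) with its 95% confidence interval for the tested genes of 5 pectin families, coloured by the test, with a dashed line at the median of all tested probe sets (-0.15). All 10 pectate lyases lie left of zero, the pectin methylesterases lie on both sides, and AT3G09405 is the single pectin acetylesterase on the right.

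In the pectin methylesterase inhibitor family 3 of 11 tested genes fell, 0 rose and 8 did not pass, where 14.9% of all tested probe sets were called lower. With the replicate block 6 fell and 1 rose, beside 30% and 19.1%. AT5G62350 and AT5G62360 are direct neighbours in the genome. AT5G62350 read 1033, 718 and 757 with ozone, against 1842, 1343 and 1268 in control (log2 fold change -0.83, adjusted p = 0.0242). AT5G62360 read 105, 114 and 118 with ozone, against 215, 262 and 251 in control (-1.11, adjusted p = 0.00186). The fall of AT5G62350 did not pass after median centring or without ozone replicate 2, ozone replicate 3 or control replicate 2 (adjusted p up to 0.0971), while the call of AT5G62360 held in all 16 settings. For AT1G23205 the log2 fold change was -1.38 (adjusted p = 0.00502). AT1G14890 had the most positive value of the family, 0.60 (adjusted p = 0.104, and 0.0461 with the replicate block). The block also added AT4G25250 (log2 fold change -1.13, adjusted p = 0.0193), AT2G01610 (-0.46, 0.0330) and AT4G25260 (-0.56, 0.0400) to the genes that fell. The ozone mean of AT4G25250 (26.1) was below 31.2, so it was tested because of its control arrays. AT5G20740 was too dim to be tested. It read 4.4, 4.3 and 25.4 with ozone, against 48.5, 63.5 and 53 in control, and passed in the fit without the filter (-2.80, adjusted p = 0.0284).

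Pectin acetylesterases remove acetyl groups from pectin, and 1 of the 4 tested genes rose while 1 fell, beside 13% and 14.9% of all tested probe sets. AT3G09405 read 339, 269 and 268 with ozone, against 51.5, 43.4 and 44.0 in control, a 6.28-fold rise (log2 fold change 2.65, SE 0.172, limma adjusted p = 8.65e-05). Among the 52 tested pectin genes this was the largest change in size. Without ozone replicate 3 that of AT1G67750 was larger (-2.88, against 2.71). The call of AT3G09405 held in all 16 settings. Its direct neighbour AT3G09410, of the same family, read 55.1, 90.5 and 112 with ozone, against 99.0, 148 and 144 in control (-0.64, adjusted p = 0.139, and 0.00656 with the replicate block). The neighbours thus had log2 fold changes of opposite sign. AT3G05910 had -0.66 (adjusted p = 0.0669, and 0.00212 with the replicate block). With the block 3 of the 4 genes fell and 1 rose, beside 30% and 19.1% of all tested probe sets. AT1G57590 fell (log2 fold change -0.80, adjusted p = 0.0388), a call that was lost without any array other than ozone replicate 3 and without the filter on dim probe sets (adjusted p up to 0.122).

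Few of the other listed genes were measured. THE1, a malectin-type receptor kinase that senses wall damage, read 46.9, 64.1 and 77.8 with ozone, against 92.8, 118 and 112 in control (log2 fold change -0.80, adjusted p = 0.0330). This call was lost without ozone replicate 1, ozone replicate 2, control replicate 2 or control replicate 3 (adjusted p up to 0.113). FER, a receptor kinase of the same type that binds pectin, had a log2 fold change of 0.12 (95% interval -0.25 to 0.48). Of 2 tested rhamnogalacturonan lyases, 2 galacturonan synthesis and methylation genes and 2 subtilases, 0 passed, and their log2 fold changes were -0.42 to 0.22. With the replicate block AT3G49720 of the galacturonan list fell (-0.42, adjusted p = 0.0120).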

How the data were processed

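The deposited values are MAS5 signal intensities, 1 per probe set and array, and MAS5 is named without a version per the submitters' processing notes. Groups and replicate numbers came from the sample titles. Members, lists and tests were chosen with earlier results of these data known. The 95 zeros in the table were replaced by the lowest non-zero signal on the same array, and log2 was taken. The 64 control probe sets were removed, as were those whose average log2 signal was in the lowest 40 percent (under a signal of 31.2). The remaining 13648 were compared with limma 3.58.1 in R 4.3.3 (lmFit, eBayes with a trend, two-sided). P-values were adjusted over all of them by Benjamini-Hochberg, with a threshold of 0.05. Every adjusted p is from limma. Log2 fold changes are ozone minus control. Precision is limited by there being 3 arrays a group.

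Of 13513 probe sets that the platform annotation gives 1 gene, 13436 could be tied to a RefSeq locus (assembly TAIR10.1), used for names and neighbours. Another 503 name several genes, and 8794 of the 22810 probe sets have no entry in that annotation. Each measured member had 1 probe set, and 0 carried a suffix for shared probes. Named are members past the threshold, members with a log2 fold change of at least 1 in size or a call that an alternative changes, and list genes past the threshold. The text also names other members and list genes, chosen after their values were seen.

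Deviations from the group means correlated at 0.747, 0.374 and 0.439 between arrays with the same replicate number. Deviations cancel out within a group, so a trait shared by the replicate 1 arrays alone can raise all of these values. Arrays with unlike numbers were not compared, and no label states a pairing. Whether the number pairs the arrays is therefore not known, and the replicate block is given as an alternative. The main fit has no block. The code was tested on simulated data.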

Additional observations from a re-analysis of the deposited data

How the results depend on the processing

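The settings varied were the scaling (quantile, median), an added 16 or 64, the filter (none, 60th percentile), the variance model (no trend, robust), the replicate block and the set of arrays. Leaving out both replicate 1 arrays was added after seeing the data. With the replicate block 6699 probe sets changed instead of 3816, 5 pectin methylesterases instead of 3 and 19 other pectin genes instead of 12, and 9 pectate lyases instead of 8. Leaving out 1 array gave 2246 to 3690 probe sets, 7 to 9 pectate lyases, 1 to 4 pectin methylesterases and 8 to 12 other pectin genes, and leaving out both replicate 1 arrays gave 4839, 9, 3 and 14. The lowest of these were 2246 without ozone replicate 2, 2408 without control replicate 2 and 2273 without control replicate 3, where also 1 pectin methylesterase passed, AT4G02330. The cause was not tested. Of the single-gene results named by rule, 0 changed direction in any setting. For members, calls were lost in 9 and gained in 6 of 221 pairs of gene and setting. The filter at the 60th percentile left 6 pectate lyases, and all 6 fell. Taking the dimmest probe set per gene changed nothing, since each member had 1. Signals below 31.2 limit what can be said of 12 pectin methylesterases.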
